A study of Mus musculus with 6 samples.

Results

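Runx1, Runx2, Sp7, Dlx3, Msx1, Twist1 and Twist2 are 7 transcription factors of the osteoblast lineage. They were chosen by name, as the rows of the deposited table that carry these gene symbols. All 7 had a row among the 19353 genes of the table. Of the 13662 genes with enough counts to be tested 6 were members, and Sp7 was the one left out.

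RUNX2 is required for mesenchymal progenitors to enter the osteoblast lineage, and SP7 (osterix) acts downstream of it to carry committed cells towards the bone-forming osteoblast. RUNX proteins bind DNA together with CBFB. The homeodomain proteins DLX3 and MSX1 regulate genes of the developing skeleton, and the basic helix-loop-helix proteins TWIST1 and TWIST2 can bind RUNX2 and hold back its activity in early progenitors. RUNX1, a close relative of RUNX2 best known for its role in blood formation, is also made by skeletal progenitors.

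The study compared mesenchymal stem cells from the bone marrow of WT mice, cultured in osteogenic medium with or without melanin-concentrating hormone (MCH), a peptide made chiefly in the hypothalamus. In the MCH group (3 libraries) the hormone was present at 0.5 µM, along with dexamethasone at 100 nM, β-glycerophosphate at 10 mM and ascorbic acid at 50 µM. The Control group (3 libraries) had the same osteogenic medium without the hormone, so both groups were exposed to dexamethasone and neither shows the cells before induction. Sampling was on day 9 according to the titles and on day 8 according to the design text. The labels name no animal age or strain, nor do they say whether animals or cultures differed between libraries. The p-values therefore reflect the spread between these libraries alone, which may be technical.

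Polyadenylated RNA was sequenced, and library totals ran from 16755247 to 18090083 counts with MCH and from 16521980 to 18803949 counts in Control. The labelled cell type was set against markers. The 8 markers of marrow stroma together ran from 465 to 497 CPM (counts scaled to a common library size) with MCH and from 614 to 640 CPM in Control. They were uneven in level. Cxcl12 averaged 183 CPM with MCH and 195 CPM in Control, while Lepr was at 5 to 13 counts in MCH libraries and 15 to 20 in Control libraries. Thy1 was at 36 to 59 counts in MCH libraries and 47 to 59 in Control libraries. The 10 leukocyte and macrophage markers together ran from 47.8 to 80.9 CPM with MCH and from 38.1 to 45.3 CPM in Control, mostly from Cd68. Among them Ptprc, the pan-leukocyte antigen, was at 0 to 2 counts in MCH libraries and 0 to 1 in Control libraries. Lyz2 was at 55 to 176 counts in MCH libraries and 52 to 110 in Control libraries. The 3 markers of mature osteoblasts and osteocytes that could be read (Bglap, Phex and Mepe) summed to 9 to 17 counts with MCH and 21 to 30 counts in Control, and the 1 that was tested, Phex, was not called.

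Short sequences at these loci show how alike related genes are and what lies before their starts. Twist1 and Twist2 share most of their helix-loop-helix coding sequence, and the stretch around their longest identical run is shown here. Whether any read matched both genes was not tested. The stretch comes from the GENCODE M21 coding sequences, coding bases 358 to 470 of Twist1 (gene on chromosome 12) and 220 to 332 of Twist2 (gene on chromosome 1). Capitals mark the 12 of 113 bases that differ.
Twist1 coding: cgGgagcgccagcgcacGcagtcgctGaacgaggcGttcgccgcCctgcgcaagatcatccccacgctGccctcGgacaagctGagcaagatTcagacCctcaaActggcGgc
Twist2 coding: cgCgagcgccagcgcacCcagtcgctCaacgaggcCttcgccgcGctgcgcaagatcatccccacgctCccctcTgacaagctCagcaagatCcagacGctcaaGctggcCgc
Identity over the stretch was 89.4%, and the longest run identical in both genes was 23 bases. Over their coding sequences the longest shared run was 26 bases between Runx1 and Runx2, 38 bases between Runx1 and Runx3, 22 bases between Msx1 and Msx2 and 24 bases between Sp7 and Sp6. How reads from such runs were counted is not stated in the sources used here.

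The 2 Twist genes differ upstream. The 250 bases before each RefSeq start (GRCm38.p6) are shown because the Twist2 window lies inside an antisense transcript, Gm29100. No other annotated gene contains the whole Twist1 window, and partial overlaps were not tested. The windows are chr12:33957421-33957670 (plus strand) for Twist1 and chr1:91801211-91801460 (plus strand) for Twist2. Capitals mark matches on either strand to GGGCGG, the core of the GC box bound by SP family proteins.
Twist1 upstream: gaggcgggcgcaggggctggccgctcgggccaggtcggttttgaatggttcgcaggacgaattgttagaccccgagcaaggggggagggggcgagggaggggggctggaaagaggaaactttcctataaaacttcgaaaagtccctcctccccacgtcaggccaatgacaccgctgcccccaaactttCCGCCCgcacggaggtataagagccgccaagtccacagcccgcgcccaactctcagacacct
Twist2 upstream: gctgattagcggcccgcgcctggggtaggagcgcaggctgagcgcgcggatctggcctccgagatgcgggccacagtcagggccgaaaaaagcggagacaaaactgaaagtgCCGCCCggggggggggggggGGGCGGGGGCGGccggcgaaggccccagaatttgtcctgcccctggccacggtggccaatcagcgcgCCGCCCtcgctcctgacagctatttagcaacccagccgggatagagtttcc
The Twist1 window held 1 match and the Twist2 window 4, and 32.7% of the 32851 RefSeq upstream windows of this length held at least 1. GC content was 62.4% for Twist1 and 68.8% for Twist2, against a median of 52.4% over all windows. TATAAA was found once in the Twist1 window and not in the Twist2 window, and in 12.4% of all windows.

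The Runx2 window (chr17:44814628-44814877, minus strand) was poorer in GC, at 44.8% or percentile 23.2 of all windows, and held no CpG. It lies inside Supt3, a gene of the SAGA coactivator complex on the other strand. Its single match to TGTGGT, the core motif of RUNX proteins, is shown in capitals (reverse complement) within 30 bases at chr17:44814690-44814719.
Runx2 motif: gtgaggtcacaaACCACAtgattctgtctc
GENCODE M21 starts the minus-strand Runx2 gene at 44814797, inside this window. The match therefore lies within the annotated M21 gene and ahead of the RefSeq start alone. It begins 80 bases before the RefSeq start and overlaps the window's single match to CANNTG, the E-box bound by helix-loop-helix proteins. TGTGGT was found in 14.0% and CANNTG in 66.2% of all windows. Of the 2 Runx1 windows, GC content was 45.6% in the distal one (chr16:92826075-92826324, minus strand) and 67.6% in the proximal one (chr16:92697330-92697579, minus strand), and neither held TGTGGT. The distal one likewise lies partly in the M21 gene, which starts at 92826149 on the minus strand. The Msx1 window (chr5:37824586-37824835, minus strand) had a GC content of 68.0%, and Sp7 and Dlx3 are named only.

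MCH against Control, the comparison the design poses, called 0 of the 6 tested factors (edgeR's quasi-likelihood test with p-values adjusted by Benjamini-Hochberg over 13662 genes, threshold 0.05). Over all tested genes 9.04% were called, 3.64% higher and 5.40% lower. DESeq2, limma-voom and limma on log2(FPKM + 1), where FPKM is fragments scaled by gene length and library size, also called 0 of the 6. At an unadjusted p under 0.05 there were 3, namely Runx1, Runx2 and Dlx3, each lower with MCH, beside 13.8% of all tested genes in that direction and 12.9% in the other. The same 3 had every MCH library below every Control library, as 16.6% of tested genes did. Msx1 had every MCH library above every Control library, as 16.1% did. The median log2 fold change of the 6 was -0.14, beside 0.002 over all tested genes. In bulk RNA, fewer cells of a type and less RNA per cell cannot be told apart.

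**Figure D1:**
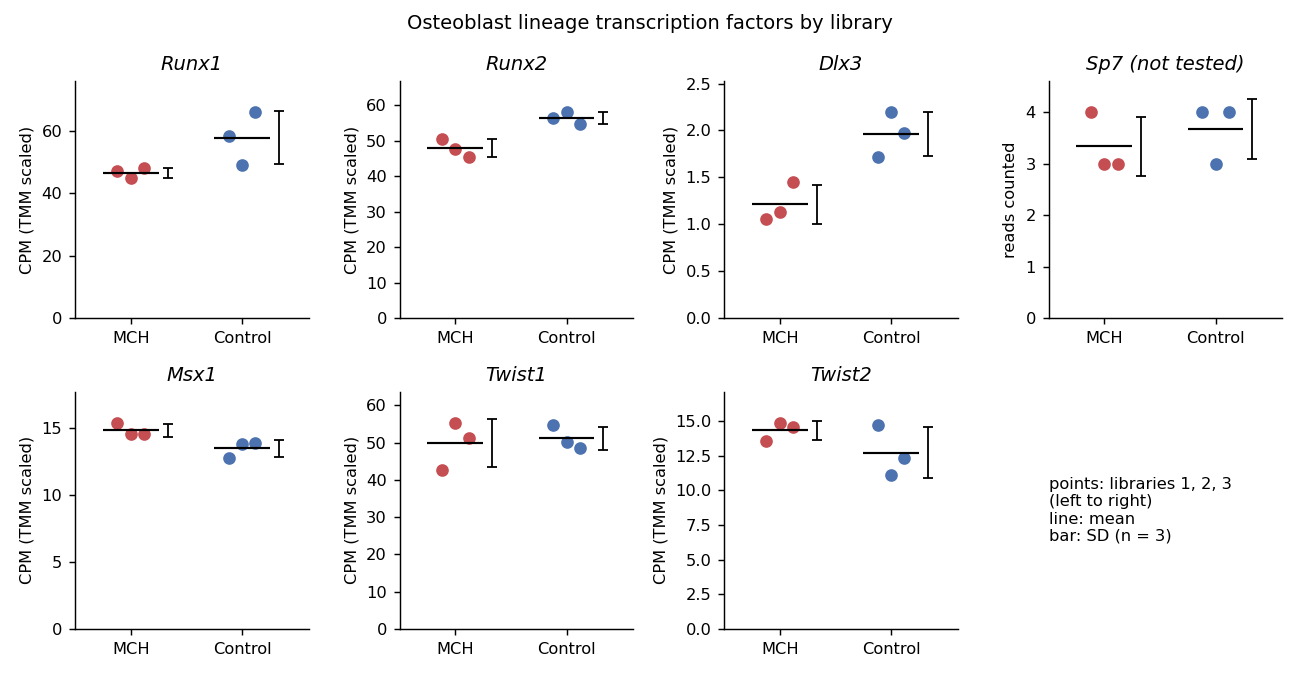
Level of each factor in each library, as TMM-scaled CPM (Sp7, which was not tested, as reads counted), MCH left of Control; points are libraries, the line is the mean and the bar the SD (n = 3). Runx1, Runx2 and Dlx3 are lower in every MCH library than in every Control library, Msx1 is higher, and Twist1 and Twist2 overlap.

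Runx2 (ENSMUSG00000039153, chr17:44495987-44814797, minus strand), the lineage-determining factor, had 860, 845 and 783 counts in MCH libraries 1 to 3 and 920, 1111 and 944 counts in Control libraries 1 to 3. Scaled for library size these were 50.5, 47.7 and 45.4 CPM with MCH, against 56.5, 58.1 and 54.8 CPM in Control. Every MCH library lay below every Control library, and the libraries of each group were close together. The means were 47.9 ± 2.52 CPM with MCH and 56.5 ± 1.67 CPM in Control (SD, n = 3 each). This is a fold of 0.847 with a 95% interval from 0.754 to 0.952, and like all intervals here it is not adjusted for the number of genes. The log2 fold change was -0.24 (SE 0.07), with an edgeR p of 0.0112 and an adjusted p of 0.0822. Fits that left out a single library gave edgeR adjusted p-values from 0.061 to 0.259, so none of the 6 passed the threshold. In the authors' deposited table its p-value was 0.140 and its q-value 0.626.

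Genes overlapping Runx2 were read beside it, since no source used here states the strand setting of the counting. Supt3 had 818, 939 and 861 counts with MCH and 854, 903 and 788 counts in Control, a log2 fold change of 0.05 (SE 0.08, edgeR adjusted p = 0.724). It shares no exon base with Runx2, and its groups overlapped. Runx2os1, an antisense transcript that shares 519 of the 8837 exon bases of Runx2 (5.87%), was at 38 to 47 counts in MCH libraries and 38 to 48 in Control libraries.

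Runx1 (ENSMUSG00000022952, chr16:92601466-92826149, minus strand) had 802, 793 and 826 counts with MCH and 949, 936 and 1137 counts in Control. The scaled values were 47.1, 44.7 and 47.9 CPM with MCH, against 58.3, 49.0 and 66.0 CPM in Control. The MCH libraries were close together while Control was spread, and Control library 2 came near to the MCH values. Means were 46.6 ± 1.64 CPM with MCH and 57.8 ± 8.53 CPM in Control (SD, n = 3 each), a log2 fold change of -0.31 (SE 0.11, 95% interval -0.57 to -0.05, edgeR adjusted p = 0.125). Without Control library 3 the log2 fold change was -0.20, and without Control library 2 it was -0.42, neither past the threshold in edgeR. The authors' deposited table gives Runx1 a p-value of 0.0749 and a q-value of 0.488.

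RUNX1 is also a factor of blood cells, so leukocyte and macrophage markers were set beside it. Of 10 markers 4 were tested and 0 were called by edgeR. Their summed counts were 814, 895 and 1395 with MCH and 738, 793 and 657 in Control, or 47.8 to 80.9 CPM with MCH and 38.1 to 45.3 CPM in Control. Cd68, a lysosomal glycoprotein of macrophages and other phagocytic cells, made up most of each sum, with 690, 765 and 934 counts with MCH and 606, 578 and 549 counts in Control. Scaled, it was higher in every MCH library and was not called (log2 fold change 0.47, SE 0.13, edgeR adjusted p = 0.0655). Without Cd68, left out after the values were seen, the sums were 124, 130 and 461 counts with MCH and 132, 215 and 108 counts in Control, with overlap. MCH library 3 stood apart, with 50 counts of Adgre1, the macrophage antigen F4/80, against 0 to 11 in the other libraries. It also had 31 counts of C1qb, a complement subunit made by macrophages, against 0 to 9 elsewhere. Runx1 in that library was 47.9 CPM, beside 47.1 and 44.7 CPM in the other MCH libraries. Megakaryocyte and erythroid markers summed to 17.8 to 20.0 CPM with MCH and 16.3 to 19.7 CPM in Control, and haematopoietic progenitor markers to 207 to 225 CPM with MCH and 187 to 199 CPM in Control, with 0 of 1 tested called in each list. The part of such cells in the Runx1 difference was not tested.

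Sp7 (ENSMUSG00000060284, chr15:102356609-102366325, minus strand), the factor that follows Runx2, was near the limit of detection. It had 4, 3 and 3 counts with MCH and 4, 3 and 4 counts in Control, sums of 10 with MCH and 11 in Control. The groups overlapped, and a difference was not detectable at this depth. In the authors' deposited table its p-value was 1.

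Dlx3 (ENSMUSG00000001510, chr11:95120119-95125296, plus strand), a homeodomain factor of bone, tooth and skin, had 18, 20 and 25 counts with MCH and 28, 42 and 34 counts in Control. The scaled values were 1.06, 1.13 and 1.45 CPM with MCH, against 1.72, 2.20 and 1.97 CPM in Control. All MCH libraries lay below all Control libraries, at counts where counting noise is a large part of the spread. The fold was 0.617 (95% interval 0.417 to 0.908) and the log2 fold change -0.70 (SE 0.24), with an edgeR adjusted p of 0.113. Its interval was the widest of the 6 tested factors. The authors' deposited table gives Dlx3 a p-value of 0.0354 and a q-value of 0.349.

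Msx1 (ENSMUSG00000048450, chr5:37820485-37824583, minus strand), a homeodomain repressor of craniofacial and limb mesenchyme, had 263, 258 and 251 counts with MCH and 208, 265 and 240 counts in Control. The scaled values were 15.4, 14.6 and 14.6 CPM with MCH, against 12.8, 13.9 and 13.9 CPM in Control. The MCH libraries all lay above the Control libraries once scaled, by less than the range within Control. The log2 fold change was 0.13 (SE 0.10, 95% interval -0.09 to 0.36, edgeR adjusted p = 0.422). Its paralogue Msx2 was at 0 to 3 counts in both groups and was not tested.

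Twist1 (ENSMUSG00000035799, chr12:33957671-33959817, plus strand) had 728, 981 and 884 counts with MCH and 889, 960 and 838 counts in Control. The scaled values were 42.7, 55.4 and 51.3 CPM with MCH, against 54.6, 50.2 and 48.6 CPM in Control. The groups overlapped, with MCH library 1 the lowest and MCH library 2 the highest of the 6. The log2 fold change was -0.04 (SE 0.11, 95% interval -0.29 to 0.21, edgeR adjusted p = 0.849). The sign turned without MCH library 1 (0.06) and without Control library 1 (0.01).

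Twist2 (ENSMUSG00000007805, chr1:91801461-91848028, plus strand) had 231, 264 and 251 counts with MCH and 240, 212 and 213 counts in Control. The scaled values were 13.6, 14.9 and 14.6 CPM with MCH, against 14.7, 11.1 and 12.4 CPM in Control. The MCH libraries were close together, and Control library 1 lay among them. The log2 fold change was 0.17 (SE 0.13, 95% interval -0.13 to 0.47, edgeR adjusted p = 0.442). Of its 3174 exon bases 1477 (46.5%) are shared with Gm29100 on the other strand, the transcript that also covers the upstream window. Gm29100 itself had 16, 25 and 22 counts with MCH and 19, 25 and 30 counts in Control, with overlapping groups.

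**Figure D2:**
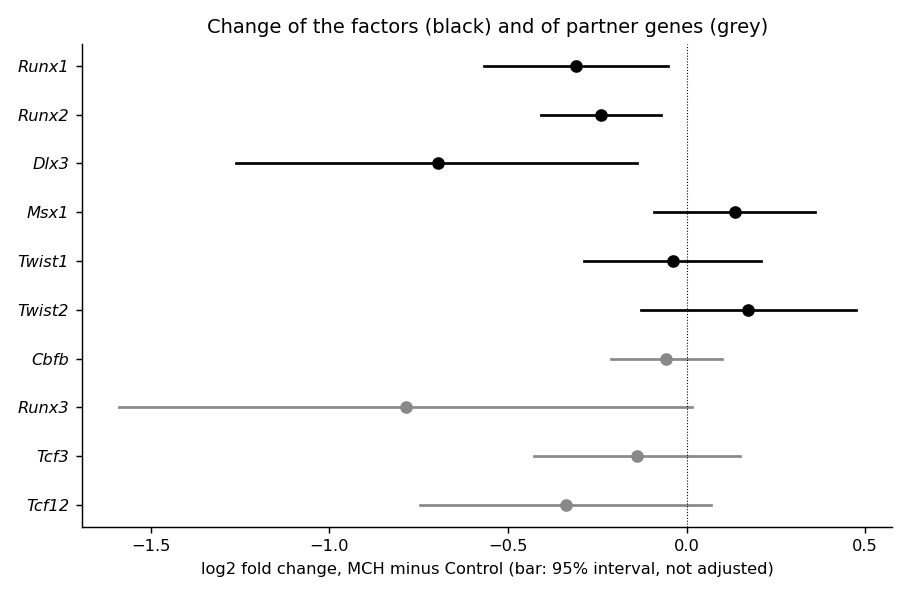
Log2 fold change, MCH minus Control, of the 6 tested factors (black) and of 4 other genes (grey). The grey genes are the partners Cbfb, Tcf3 and Tcf12 and the family member Runx3. The 95% intervals are from the edgeR fit and are not adjusted for the number of genes. The intervals of Runx1, Runx2 and Dlx3 lie below 0 and those of Msx1, Twist1 and Twist2 span it, and none of the 6 passed the adjusted threshold.

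Per length, Twist1 was the most abundant of the 7. Its deposited FPKM averaged 30.6 ± 3.40 with MCH and 31.7 ± 1.50 in Control (SD, n = 3 each), at percentile 88.2 of the tested genes. Msx1, Twist2, Runx2 and Runx1 lay together in the middle of the tested genes, at percentiles from 40.8 to 46.8. Msx1 averaged 3.88 ± 0.207 FPKM with MCH and 3.56 ± 0.223 FPKM in Control, and Twist2 averaged 3.70 ± 0.110 FPKM with MCH and 3.31 ± 0.427 FPKM in Control. Runx2 averaged 2.80 ± 0.194 FPKM with MCH and 3.33 ± 0.125 FPKM in Control, and Runx1 averaged 2.54 ± 0.121 FPKM with MCH and 3.18 ± 0.458 FPKM in Control. With MCH the Msx1 and Twist2 values overlapped and the Runx2 and Runx1 values were next to each other without overlapping, while in Control all 4 overlapped. Dlx3, at 0.462 FPKM with MCH and 0.756 FPKM in Control, and Sp7, at 0.0662 FPKM with MCH and 0.0729 FPKM in Control, lay below the other factors in all 6 libraries.

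The order of the middle 4 depended on the length used. The length implied by a gene's deposited counts and FPKM was 16994 bases for Runx2, 1.92 times its merged M21 exons, and 18224 bases for Runx1, 1.52 times. For Twist1 it was 0.99 times, and the median over 14586 genes was 1.21 times. Divided by merged exon length instead, Runx2 came second after Twist1, at 5.39 ± 0.373 CPM per kb with MCH and 6.41 ± 0.240 CPM per kb in Control. Msx1 then had 4.78 ± 0.255 CPM per kb with MCH and 4.38 ± 0.275 CPM per kb in Control, and Runx1 had 3.86 ± 0.184 CPM per kb with MCH and 4.81 ± 0.695 CPM per kb in Control. The implied length was the same in all libraries to 0.1% for each gene compared, so the length moves levels between genes and not MCH against Control within a gene.

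**Figure D3:**
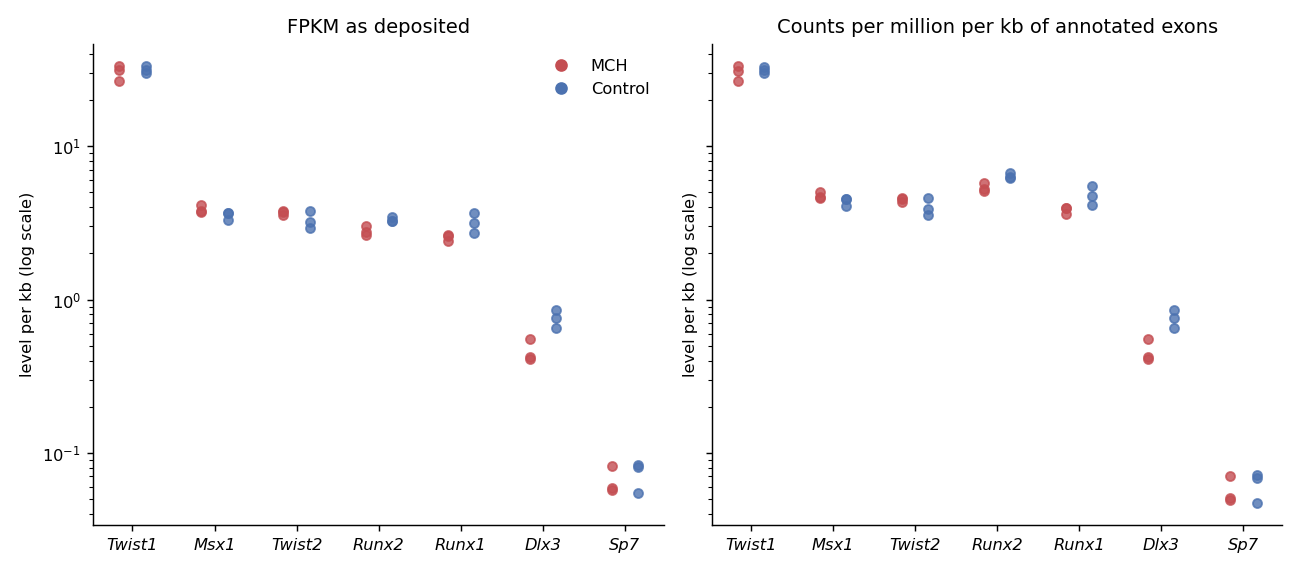
Level of each factor per library on a log axis, as FPKM from the authors (left) and as CPM per kb of merged GENCODE M21 exons (right), MCH left of Control for each gene. Twist1 is highest and Sp7 lowest on both scales, while in MCH libraries Runx2 lies below Msx1 and Twist2 on the left and above them on the right.

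Ratios of FPKM within a library set the factors against each other without any scaling between libraries. There were 9 ratios in all, each with an exact two-sided permutation test over the 20 arrangements of 6 libraries, whose smallest possible p is 0.1, so this design cannot pass 0.05. Msx1 over Runx2 was 1.36, 1.36 and 1.43 with MCH and 1.01, 1.06 and 1.13 in Control, with no overlap (exact p = 0.1, and 0.15 after Benjamini-Hochberg adjustment over the 9). Cbfb over Runx2, the partner against the factor, averaged 4.98 ± 0.240 with MCH and 4.38 ± 0.175 in Control, again without overlap (exact permutation p = 0.1). Runx2 alone already separated the groups, and so did Msx1 alone, so neither ratio is a separate result. Runx2 over Runx1 averaged 1.10 ± 0.0750 with MCH and 1.07 ± 0.193 in Control, and the groups overlapped (exact permutation p = 0.8). Twist1 over Twist2 averaged 8.26 ± 0.684 with MCH and 9.67 ± 1.01 in Control, with overlap (exact permutation p = 0.2). Twist1 over Runx2 averaged 11.0 ± 1.82 with MCH and 9.53 ± 0.563 in Control (exact permutation p = 0.4).

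RUNX proteins act with acetyltransferases, histone deacetylases and Groucho-type corepressors, and 28 such partners and co-regulators were tested. Of these 4 fell and 0 rose, beside 5.40% and 3.64% of all tested genes, and their median log2 fold change was -0.21. Every MCH library lay below every Control library for 10 of them and above for 1, beside 16.6% and 16.1% of all tested genes. Tle2, a Groucho corepressor, averaged 25.4 CPM with MCH and 40.4 CPM in Control (log2 fold change -0.67, SE 0.08, edgeR adjusted p = 0.00435). Hdac5, a class IIa histone deacetylase that can bind RUNX2, averaged 127 CPM with MCH and 172 CPM in Control (-0.44, SE 0.08, edgeR adjusted p = 0.0143). Yap1, a Hippo pathway coactivator, averaged 122 CPM with MCH and 150 CPM in Control (edgeR adjusted p = 0.0192). Smurf1, a ubiquitin ligase that can target RUNX2, averaged 65.3 CPM with MCH and 84.2 CPM in Control (edgeR adjusted p = 0.0379). The count of 4 was 1 without MCH library 2 or 3, and 2 without Control library 2 or 3. Tle2 kept its call in all 6 of those fits, Hdac5 lost it without MCH library 2 or 3, Yap1 without those or Control library 2 or 3, and Smurf1 without any library but MCH library 1.

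Cbfb, the shared DNA-binding partner, had 91.6, 91.2 and 90.8 CPM with MCH, against 97.5, 99.4 and 87.8 CPM in Control. The groups overlapped, and the log2 fold change was -0.06 (SE 0.07, edgeR adjusted p = 0.638). Runx3, the third family member, was low, with 21, 27 and 17 counts with MCH and 21, 42 and 51 counts in Control (edgeR adjusted p = 0.194). Tle3, another Groucho corepressor, had a log2 fold change of -0.50 (SE 0.15) and missed the threshold in edgeR (adjusted p = 0.0757) while DESeq2 called it (adjusted p = 0.0227).

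Other transcription factors of osteogenic and mesenchymal cells gave 3 that fell and 0 that rose among 16 tested (5.40% and 3.64% over all tested genes), with a median log2 fold change of -0.23. Foxc1, a forkhead factor of mesenchyme, averaged 43.2 CPM with MCH and 64.6 CPM in Control (log2 fold change -0.58, SE 0.08, edgeR adjusted p = 0.00564). Lef1, a nuclear effector of Wnt signalling, averaged 6.21 CPM with MCH and 11.8 CPM in Control (-0.93, SE 0.15, edgeR adjusted p = 0.0118). Prrx2, a homeodomain factor of skeletal mesenchyme, averaged 46.1 CPM with MCH and 65.5 CPM in Control (edgeR adjusted p = 0.0124), and lost its call without MCH library 3. Among relatives of Dlx3, Dlx2 averaged 13.4 CPM with MCH and 16.7 CPM in Control (edgeR adjusted p = 0.110). Dlx1 had 20, 18 and 12 counts with MCH and 62, 23 and 30 counts in Control (edgeR adjusted p = 0.148). Dlx4 averaged 5.45 CPM with MCH and 4.86 CPM in Control, with overlapping groups, and Dlx5 was not analysed here.

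TWIST proteins pair with E proteins, and ID proteins compete for the same partners. Of 7 tested genes of this kind 1 rose and 0 fell (3.64% and 5.40% over all tested genes), with a median log2 fold change of -0.14. Id1, an inhibitor of helix-loop-helix DNA binding and a target of BMP signalling, had 135, 147 and 147 CPM with MCH, against 114, 99.1 and 123 CPM in Control. Every MCH library lay above every Control library (log2 fold change 0.35, SE 0.09, edgeR adjusted p = 0.0491). The call held without MCH library 1 and was lost without any other library, with adjusted p-values up to 0.161. Tcf3, an E protein, averaged 74.1 CPM with MCH and 81.5 CPM in Control (edgeR adjusted p = 0.523), and Tcf12 averaged 60.7 CPM with MCH and 76.8 CPM in Control (edgeR adjusted p = 0.262). Id1 over Twist1 in FPKM averaged 2.23 ± 0.200 with MCH and 1.70 ± 0.229 in Control, without overlap (exact permutation p = 0.1). Id1 was itself called higher by edgeR, so this ratio is not a separate result.

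Snail and ZEB factors, repressors that often share a mesenchymal setting with the TWIST genes, had 4 tested genes, 1 of which fell and 0 of which rose (5.40% and 3.64% over all tested genes), with a median log2 fold change of -0.20. Snai1 averaged 114 ± 0.403 CPM with MCH and 151 ± 6.39 CPM in Control (SD, n = 3 each), a log2 fold change of -0.41 (SE 0.06, edgeR adjusted p = 0.00659), and it kept its call without any one library. Snai2 averaged 36.3 CPM with MCH and 38.4 CPM in Control, with overlapping groups (edgeR adjusted p = 0.615). Zeb1 averaged 50.1 CPM with MCH and 62.8 CPM in Control (edgeR adjusted p = 0.0570). Zeb2 averaged 25.2 CPM with MCH and 20.2 CPM in Control, with overlapping groups (log2 fold change 0.32, SE 0.19, edgeR adjusted p = 0.314).

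Among bone genes that RUNX2 and SP7 are known to drive, 7 of 10 tested fell and 0 rose, beside 5.40% and 3.64% over all tested genes. Their median log2 fold change was -0.79, beside -0.14 for the factors themselves. This list was chosen with earlier results of these data known, so its count and median are descriptions. Spp1 (osteopontin) over Runx2 in FPKM was 31.7, 32.3 and 35.7 with MCH and 58.6, 56.2 and 61.9 in Control. Alpl (tissue-nonspecific alkaline phosphatase) over Runx2 was 1.05, 1.27 and 1.26 with MCH and 2.41, 2.38 and 2.56 in Control. Col1a1 (type I collagen) over Runx2 was 196, 187 and 204 with MCH and 217, 209 and 249 in Control. No ratio overlapped between the groups, each with the smallest exact permutation p possible here, 0.1. Spp1, Alpl and Col1a1 were themselves called lower by edgeR, so these ratios are not a separate result. Fmod (fibromodulin) averaged 3.64 CPM with MCH and 8.49 CPM in Control (log2 fold change -1.22, SE 0.15, edgeR adjusted p = 0.0038). Sparc (osteonectin) averaged 2044 CPM with MCH and 2024 CPM in Control (edgeR adjusted p = 0.912). Bglap (osteocalcin), the classical late target, was at 0 to 2 counts in MCH libraries and 2 to 3 in Control libraries. The count of 7 was 3 without MCH library 3, and the Col1a1 call was lost without MCH library 2 or 3 or Control library 2 or 3.

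**Figure D4:**
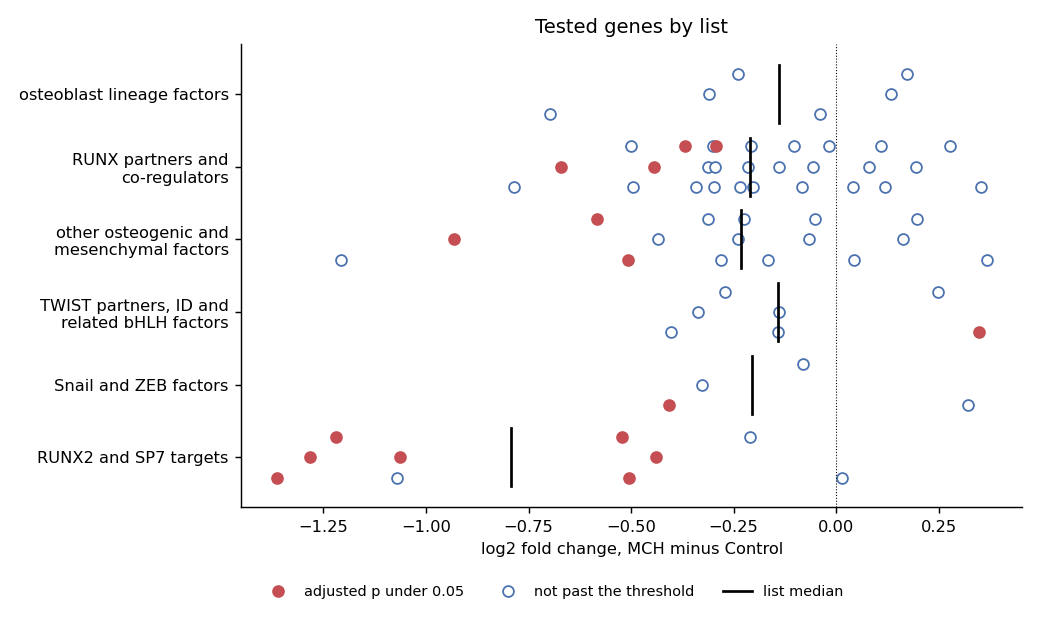
Log2 fold change, MCH minus Control, of each tested gene by list; filled red points passed an edgeR adjusted p of 0.05, open points did not, and the black bar is the list median. The osteoblast lineage factors have no filled point and a median of -0.14, and the RUNX2 and SP7 targets have 7 filled points and a median of -0.79. All lists were chosen with earlier results of these data known.

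Some markers of other cell types were called as well, beside 3.64% of all tested genes called higher and 5.40% called lower. The 3 tested chondrocyte markers (Sox9, Sox5 and Acan) fell, and the 6 that could be read summed to 36.5 to 43.1 CPM with MCH and 57.1 to 58.0 CPM in Control. Of 8 marrow stroma markers 3 fell (Pdgfra, Pdgfrb and Nt5e). Of 5 tested smooth muscle and pericyte markers 1 rose (Tagln), with sums of 1710 to 1890 CPM with MCH and 1430 to 1570 CPM in Control. Acta2 made up most of each sum, averaging 1569 CPM with MCH and 1315 CPM in Control, and was not called (edgeR adjusted p = 0.0768). Of 4 tested adipocyte markers 1 rose (Lpl), while Fabp4 was lower in every MCH library and was not called. Pparg and Cebpa overlapped between the groups. The adipocyte sums overlapped too, at 119 to 143 CPM with MCH and 124 to 138 CPM in Control. Of 2 endothelial markers tested 0 were called. The part of these shifts in the values of the factors was not tested.

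Across the 6 libraries, the genes whose log2 CPM followed a member most closely were named for each of the 6 tested factors among about 9491 genes of at least 10 CPM. These correlations are over 6 libraries that share the 2 groups and the scaling, and are descriptions. Runx2 was followed by Ell (Pearson r = 0.998), Nedd9 (0.996) and Lrba (0.996), all 3 of which were called lower with MCH. Dlx3 was followed by Snx7 (0.994), F3 (0.993) and Prune2 (0.991), the last of them called lower. Runx1 was followed by Pabpc4 (0.996), Msx1 by Afg3l2 (0.997), Twist1 by Tdpx-ps1 (0.998) and Twist2 by Mpv17l2 (0.992), none of them called. Among the members, Runx2 was most like Dlx3 (0.739), and Twist1 and Twist2 had an r of 0.375.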

How the data were processed

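For each gene and 6 libraries the deposited table holds FPKM and unnormalized counts, with p-values and q-values of the authors' own comparison, per the file headers. Their log ratios were not used. The submitters' processing notes name GRCm38 (mm10) as the build. Not given in the sources used here are the authors' statistical test, aligner, counter, strand setting and the gene length behind FPKM. MCH columns carry MCH in their names, the other 3 were taken as Control because the series has no other group, and each direction rests on that. Member symbols and loci came from the deposited table, and overlapping genes and exon lengths from GENCODE M21. Upstream sequences came from RefSeq, and 27 names in the table had become dates.

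Counts as deposited were tested in R 4.3.3 with edgeR 4.0.16, using a robust quasi-likelihood fit on group, TMM factors and two-sided p-values adjusted by Benjamini-Hochberg (threshold 0.05). The filter filterByExpr (min.count 10, min.total.count 15) passed 13662 genes and dropped 5691. Common BCV (biological coefficient of variation) was 0.174. CPM values are TMM scaled, except CPM per kb, where counts were divided by library totals without TMM factors. Each SE is the size of the unshrunken log2 coefficient over the square root of F. Within a group, chi-square over its degrees of freedom was 14.9 to 25.3 for pairs of libraries, above counting noise, so none was treated as a copy. The steps were tested on simulated data.

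The members and the 5 gene lists and 9 marker lists were chosen with earlier results of these data known. Genes named are the members, up to 5 tested genes per list with the smallest p, genes whose role a sentence needs, marker genes with counts, and for each tested member the genes of at least 10 CPM most correlated with it; not all are printed. As alternatives, scaling by upper quartile or RLE was tried, with DESeq2 1.42.0, limma 3.58.1 (voom, and log2(FPKM + 1) or log2(FPKM + 0.1)), other filters, a non-robust fit, the replicate number as a block, and each library left out.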

Additional observations from a re-analysis of the deposited data

How the results depend on the processing

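No member passed the threshold under any of the 16 alternatives, and Twist1 alone changed sign, to 0.059 without MCH library 1 and 0.011 without Control library 1, a range of -0.121 to 0.059 over the fits that left out a library. Over those fits the log2 fold change ran from -0.28 to -0.20 for Runx2, from -0.42 to -0.20 for Runx1, from -0.84 to -0.61 for Dlx3, from 0.10 to 0.16 for Msx1 and from 0.08 to 0.29 for Twist2. On log2(FPKM + 1) Dlx3 was at -0.26, where the pseudocount shrinks a gene under 1 FPKM, and under a filter of at least 50 counts in 3 libraries it was not tested. Genes called higher ran from 65 (without MCH library 3) to 722 (without MCH library 1), and genes called lower from 256 to 867 without the same libraries. Calls over the same fits ran from 1 to 6 lower for RUNX partners, 2 to 4 lower for other osteogenic factors, 0 to 1 higher and 0 to 1 lower for the TWIST list, 0 to 1 higher and 1 to 2 lower for Snail and ZEB factors, and 3 to 7 lower for RUNX2 and SP7 targets. Deviations from the group means had correlations of -0.207, -0.017 and -0.003 between same-numbered libraries. With 3 libraries per group these cannot decide whether a number marks a shared animal or culture. The labels do not say. With the number as a replicate block 28 genes were called higher and 151 lower, with 0 lower RUNX partners, 0 lower other osteogenic factors, 0 higher in the TWIST list, 0 lower Snail and ZEB factors and 3 lower targets. The TWIST list also had 0 higher under the filter of at least 50 counts and under the non-robust fit, and DESeq2 called 2 Snail and ZEB factors lower; the cause was not tested. Depth limits Sp7 (3 to 4 counts) and Dlx3 (18 to 42 counts) most.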

Other observations

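Some genes of the lists were uneven within a group, and were picked after their values were seen. Smad5, a BMP signal transducer, had 1278, 1154 and 1155 counts with MCH and 1227, 292 and 1387 counts in Control, Control library 2 being far below the rest. Kat6b, an acetyltransferase that can bind RUNX2, had 463, 320 and 327 counts with MCH and 349, 105 and 504 counts in Control, with the same library lowest. Kat6a, its paralogue, had 503, 327 and 313 counts with MCH and 213, 715 and 531 counts in Control, with that library highest. Hdac7 had 1522, 1336 and 3002 counts with MCH and 1365, 2543 and 3033 counts in Control. For none of these 4 did edgeR call a difference, with adjusted p-values of 0.829 for Smad5, 0.877 for Kat6b, 0.721 for Kat6a and 0.808 for Hdac7.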
